A study of Mus musculus with 8 samples.

Results

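The 32 genes described here act at the G2/M transition and in mitosis. They comprise cyclins and mitotic kinases, the spindle checkpoint and its target, kinetochore proteins, spindle motors, cytokinesis factors, proteins of mitotic chromosomes and the transcription factor Foxm1. The genes form a list of named symbols, chosen with earlier results of these data known. Each was read from the probe sets that the platform annotation assigns to its symbol and no other, and the brightest of them, by its mean level, stood for the gene. All 32 were measured, out of 18193 genes on the array, and 77 probe sets belong to them. RNA came from secondary neurospheres, balls of neural stem and progenitor cells grown in suspension, and was hybridised to Affymetrix Mouse430_2 arrays, which report each probe set as a log2 level. The groups were FoxO3 null (FoxO3-/-, 4 arrays) and wild type (FoxO3+/+, 4 arrays), each with 2 arrays in set 2 and 2 in set 1. All arrays share the FVB/N background, forebrain cells, medium with bFGF and EGF at 20 ng/ml each, seeding at 50000 cells/ml and collection on day 6. The labels state neither the age nor the sex of the mice, do not define a set, and are silent on whether paired arrays of 1 genotype in a set were separate cultures. All p-values below therefore rest on the spread between arrays alone, and part or all of that spread could be technical.

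Entry into mitosis is driven by Cdk1 bound to cyclins of the A and B type, which the phosphatase Cdc25c activates and which Plk1 and the Aurora kinases assist. Sister chromatids then stay together until the spindle checkpoint, of which Bub1, Bub1b, Mad2l1 and Ttk are part, no longer restrains Cdc20. Cdc20 is the activator of the anaphase-promoting complex (APC/C), an E3 ubiquitin ligase. Most of these genes are transcribed late in the cell cycle: the DREAM complex represses them in resting cells, MYBL2 and FOXM1 activate them in cycling cells, and in the forebrain they mark dividing progenitors. FoxO3 is a forkhead transcription factor that growth factor signalling through Akt keeps out of the nucleus.

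Foxo3, the targeted gene, was lower in FoxO3 null arrays by both of its brightest probe sets. The brighter, 1434831_a_at, had levels of 9.05 and 9.14 in FoxO3 null and 10.32 and 10.00 in wild type arrays of set 2, and of 8.86 and 9.08 in FoxO3 null and 10.24 and 10.26 in wild type arrays of set 1. Its log2 fold change was -1.17 (limma with Benjamini-Hochberg adjustment, adjusted p = 0.000649). The groups did not overlap in this probe set, in 1434832_at (-1.07, adjusted p = 0.0021) or in 1444226_at, which the annotation also assigns to Gm38485 (-0.48, adjusted p = 0.0207). The dim probe set 1450236_at had 0.33 (adjusted p = 0.110). The deleted part of the gene is not stated in the labels, and a probe set outside it checks nothing. Array medians lay between 6.28 and 6.31. Actin control probe sets at the 3' end exceeded those at the 5' end, a sign of RNA quality, by 0.33 and 0.36 in FoxO3 null and 0.39 and 0.36 in wild type arrays of set 2, and by 0.47 and 0.49 in FoxO3 null and 0.54 and 0.52 in wild type arrays of set 1. For Gapdh this difference was -0.099 and -0.115 in FoxO3 null and -0.105 and -0.074 in wild type arrays of set 2, and -0.102 and -0.086 in FoxO3 null and -0.076 and -0.074 in wild type arrays of set 1. Both measures were thus lower in both FoxO3 null arrays of set 1, overlapped in set 2, and had lower FoxO3 null means in both sets. Their part in the results was not tested.

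All 32 genes were higher in FoxO3 null than in wild type spheres, each by a small amount. The median log2 fold change (FoxO3 null minus wild type) was 0.15, or 1.11-fold, and the range ran from 0.05 for Cenpa to 0.29 for Kif23. Over all genes the median was 0.0091, with 54.2% of genes above 0. No single gene of the 32 passed the test over all genes (limma, Benjamini-Hochberg adjusted p under 0.05, 0 of 32), where 1.6% of all genes passed. At an unadjusted p under 0.05, 24 of 32 (75%) were higher and 0 were lower, against 8.32% of all genes that were higher at this level. The count was 12 without FoxO3 null array 2_1, 15 without FoxO3 null array 2_2, 15 without wild type array 1_1 and 11 without wild type array 2_1. It was 11 with the 2 arrays of each set and genotype averaged, 4 with no set term and 0 with the level of Y-linked genes, described further on, as a covariate. The number past the adjusted test depended on the variance model: it was 7 with a trend of variance on level, 6 with a random block for arrays of the same set and genotype, and 3 among genes above the median level. The correlation estimated for that block was negative (-0.23), and with those arrays averaged 0 of 32 passed (lowest adjusted p = 0.362, limma). All 32 genes were read on the same arrays, so the counts above are not 32 separate results. In bulk spheres, more dividing cells and more RNA per dividing cell cannot be told apart.

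**Figure D1:**
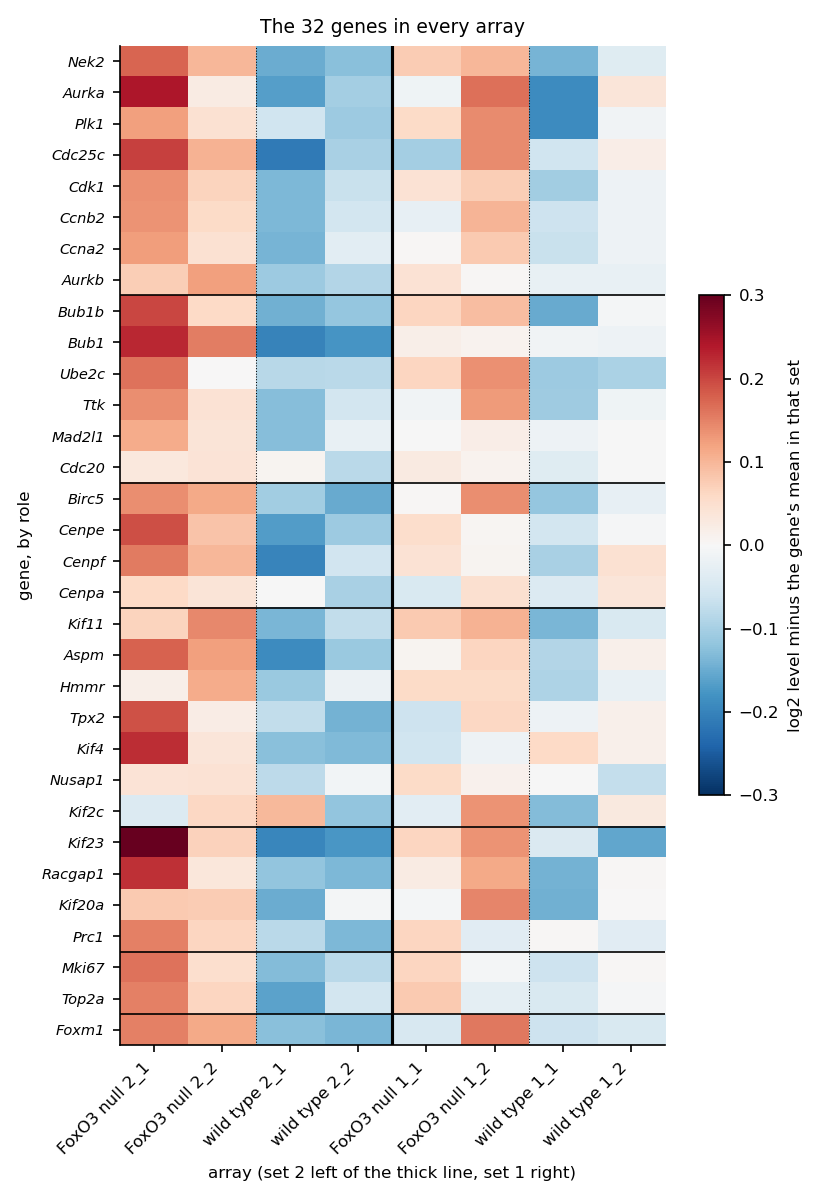
Log2 level of each of the 32 genes in every array, as the deviation from the gene's mean in that set, with genes grouped by role down the page and ordered by fold change within a role. Within each set the FoxO3 null arrays stand left of the wild type arrays. FoxO3 null arrays 2_1 and 2_2 had 31 and 32 genes above the set mean and wild type arrays 2_1 and 2_2 had 2 and 0, while in set 1 the counts were 21 and 28 in FoxO3 null and 2 and 11 in wild type arrays.

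The promoters of these genes are shown because the genes differed in the same direction and because their shared elements are known. In other mammalian cells a CCAAT box bound by NF-Y and a cell cycle genes homology region (CHR) bound by DREAM and MYBL2 complexes act in such promoters. The table of mouse promoters from RefSeq (GRCm38.p6) held 26 of the 32 genes, and the 200 bases before each start were searched on both strands for CCAAT, for the CHR letters TTTGAA or TTCGAA, and for the forkhead motif GTAAACA, with overlapping matches counted. A CCAAT box was found in 22 of 26 (84.6%), against 32.7% of 27025 genes, and a CHR in 10 of 26 (38.5%), against 15.4%. Both occurred in 9 of 26 (34.6%), against 4.70%. The forkhead letters occurred in 0 of 26, against 2.79%, which says only that these letters are not in this window. In the other mitosis genes named further on, 61 of 123 promoters (49.6%) had a CCAAT box and 36 of 123 (29.3%) a CHR. A match is a run of letters and not a shown binding site. The 6 promoters printed are those with both elements and the smallest genotype p, read 5' to 3' towards the start, with both elements in capitals.
Kif11, chr19:37376182-37376381, plus strand: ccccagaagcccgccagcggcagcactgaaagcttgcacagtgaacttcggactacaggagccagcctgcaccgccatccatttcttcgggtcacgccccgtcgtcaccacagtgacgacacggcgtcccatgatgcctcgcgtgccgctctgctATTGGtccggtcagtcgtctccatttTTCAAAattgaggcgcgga
Bub1b, chr2:118598011-118598210, plus strand: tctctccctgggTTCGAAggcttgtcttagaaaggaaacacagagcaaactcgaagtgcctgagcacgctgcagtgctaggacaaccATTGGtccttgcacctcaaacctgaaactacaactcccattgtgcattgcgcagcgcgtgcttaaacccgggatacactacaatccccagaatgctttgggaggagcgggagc
Ube2c, chr2:164769729-164769928, plus strand: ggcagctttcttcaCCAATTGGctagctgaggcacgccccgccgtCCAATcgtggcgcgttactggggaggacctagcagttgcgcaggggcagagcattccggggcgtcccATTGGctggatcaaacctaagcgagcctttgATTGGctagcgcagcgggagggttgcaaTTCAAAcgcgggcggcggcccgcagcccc
Cdk1, chr10:69352913-69353112, minus strand: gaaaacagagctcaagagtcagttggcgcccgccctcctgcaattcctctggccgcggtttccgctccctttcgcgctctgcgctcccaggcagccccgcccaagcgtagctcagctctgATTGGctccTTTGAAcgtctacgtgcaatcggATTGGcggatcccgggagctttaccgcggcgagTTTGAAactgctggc
Ccnb2, chr9:70421555-70421754, minus strand: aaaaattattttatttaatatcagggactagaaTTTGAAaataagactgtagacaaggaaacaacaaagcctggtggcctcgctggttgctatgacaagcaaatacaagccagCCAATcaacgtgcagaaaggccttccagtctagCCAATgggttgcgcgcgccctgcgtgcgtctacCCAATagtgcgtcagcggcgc
Mki67, chr7:135716380-135716579, minus strand: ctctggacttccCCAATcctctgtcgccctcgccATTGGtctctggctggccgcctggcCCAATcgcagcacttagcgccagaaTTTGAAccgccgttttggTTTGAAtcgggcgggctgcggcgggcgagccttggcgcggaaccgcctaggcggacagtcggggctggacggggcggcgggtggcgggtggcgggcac
In Kif11 the reverse CCAAT box lies 45 bases and the CHR 19 bases before the start, and in Cdk1 CCAAT boxes at 80 and 48 bases alternate with CHR matches at 71 and 15, each counted from the first base of the match. Ube2c carries 5 CCAAT matches, of which those at 186 and 183 bases overlap on opposite strands. Ccnb2 has 3 CCAAT matches at 87, 54 and 21 bases. Of the members with the lowest p, Nek2 and Kif23 each had 1 CCAAT match and no CHR match in this window.

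Of the cyclins, kinases and Cdc25c, 8 of 8 were higher (54.2% of all genes), with a median log2 fold change of 0.17. All 8 of 8 had an unadjusted p under 0.05, where 8.32% of all genes were higher at this level. Nek2, a kinase that separates the centrosomes (chromosome 1 from 191821449 to 191833049, GRCm38.p6), had levels of 10.36 and 10.29 in FoxO3 null and 10.04 and 10.06 in wild type arrays of set 2, and of 10.37 and 10.40 in FoxO3 null and 10.16 and 10.26 in wild type arrays of set 1. It was the only 1 of the 32 in which all 4 FoxO3 null arrays lay above all 4 wild type arrays. Over all 18193 genes, 368 did so. The log2 levels of Nek2 thus stood apart as those of some genes outside the list did. Its log2 fold change was 0.23 ± 0.05 (SE), or 16.9% higher, with a 95% interval of 0.11 to 0.34 and the lowest adjusted p of the list (limma, adjusted p = 0.0647). Cdk1, the master kinase of mitosis, had levels of 11.79 and 11.72 in FoxO3 null against 11.52 and 11.59 in wild type arrays of set 2, and 11.96 and 11.99 in FoxO3 null against 11.82 and 11.90 in wild type arrays of set 1. Within both sets its groups stood apart, at a log2 fold change of 0.16 ± 0.05. Aurka, the spindle pole kinase, had 0.21 ± 0.07, but the wild type array 1_2 at 10.70 lay between the FoxO3 null arrays of its set at 10.66 and 10.83. Plk1, which acts from mitotic entry to cytokinesis, had 0.18 ± 0.06. Its groups were apart in both sets, with 10.76 and 10.68 in FoxO3 null against 10.57 and 10.53 in wild type arrays of set 2, and 10.81 and 10.90 in FoxO3 null against 10.57 and 10.75 in wild type arrays of set 1. Cdc25c had 0.17, Ccnb2 0.13, Ccna2 0.13 and Aurkb, the kinase of the chromosomal passenger complex, 0.12. Of these, Ccna2 and Aurkb had groups apart in both sets.

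Spindle checkpoint and APC/C genes were higher in 6 of 6 cases, with a median of 0.17 and 4 of 6 at an unadjusted p under 0.05. Over all genes these shares were 54.2% and 8.32%. Bub1b, which encodes the checkpoint kinase-like protein BubR1, had levels of 10.46 and 10.32 in FoxO3 null and 10.12 and 10.15 in wild type arrays of set 2, and of 10.68 and 10.70 in FoxO3 null and 10.46 and 10.61 in wild type arrays of set 1. The groups stood apart in both sets, at 0.21 ± 0.06 (limma, adjusted p = 0.118). Bub1, the kinase that builds the checkpoint at kinetochores, had levels of 10.64 and 10.57 in FoxO3 null and 10.21 and 10.24 in wild type arrays of set 2, but of 10.95 and 10.94 in FoxO3 null and 10.92 and 10.91 in wild type arrays of set 1. The distance between its groups was thus wide in set 2 and narrow in set 1. Ube2c, the E2 enzyme of the APC/C, had 12.30 and 12.13 in FoxO3 null against 12.05 and 12.05 in wild type arrays of set 2, and 11.94 and 12.01 in FoxO3 null against 11.76 and 11.78 in wild type arrays of set 1. Its groups were apart in both sets, at 0.18 ± 0.05. Ttk, the kinase MPS1, had 0.15. Mad2l1, the inhibitor of Cdc20, had 0.08 (95% interval -0.04 to 0.20) and Cdc20 had 0.06 (-0.05 to 0.16). These intervals include 0, and the brightest probe set of Cdc20 gave a smaller value than its 2 others (0.18 for 1416664_at and 0.12 for 1439394_x_at).

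At the centromere and kinetochore 4 of 4 genes were higher, with a median of 0.16 and 3 of 4 at an unadjusted p under 0.05. The same shares over all genes were 54.2% and 8.32%. Birc5, which encodes survivin of the chromosomal passenger complex, had 10.64 and 10.61 in FoxO3 null against 10.40 and 10.35 in wild type arrays of set 2, and 10.68 and 10.81 in FoxO3 null against 10.56 and 10.65 in wild type arrays of set 1. Every FoxO3 null array exceeded the wild type arrays of its own set, at 0.20 ± 0.06 (limma, adjusted p = 0.121). Cenpe, a kinesin that brings chromosomes to the metaphase plate, had 0.17, and Cenpf, a large kinetochore protein, had 0.15. Cenpa, the histone H3 variant that marks centromeres, had the smallest value of the list, 0.05 (95% interval -0.07 to 0.17).

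Spindle motors and assembly factors were higher in 7 of 7 cases (54.2% of all genes), with the lowest median of the roles that hold several genes, 0.11. Of them 3 of 7 had an unadjusted p under 0.05, where 8.32% of all genes were higher at this level. Kif11, the kinesin that pushes spindle poles apart (chromosome 19 from 37376382 to 37421863), had levels of 9.68 and 9.76 in FoxO3 null and 9.48 and 9.55 in wild type arrays of set 2, and of 10.24 and 10.27 in FoxO3 null and 10.03 and 10.12 in wild type arrays of set 1. Its groups were apart in both sets, at 0.20 ± 0.05 (limma, adjusted p = 0.0951), and its promoter is the first of those printed above. Aspm, a spindle pole protein whose human gene is mutated in primary microcephaly, had 10.57 and 10.51 in FoxO3 null against 10.20 and 10.28 in wild type arrays of set 2, and 11.01 and 11.06 in FoxO3 null against 10.91 and 11.01 in wild type arrays of set 1, where array values met. Its log2 fold change was 0.19 ± 0.06. Kif4, a chromokinesin on chromosome X, had 9.58 and 9.40 in FoxO3 null against 9.23 and 9.23 in wild type arrays of set 2, but 9.82 and 9.86 in FoxO3 null against 9.94 and 9.89 in wild type arrays of set 1. Both FoxO3 null arrays lay above the wild type arrays in set 2 and below them in set 1, the only such case among the 32. Hmmr, a spindle assembly factor, had 0.12, Tpx2, the activator of Aurora A, 0.11, and Nusap1, a microtubule binder, 0.08. Kif2c, a microtubule depolymerase, had 0.06 (95% interval -0.09 to 0.21) and was the only gene whose groups overlapped in set 2.

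Cytokinesis genes were higher in 4 of 4 cases, with a median of 0.17 and 3 of 4 at an unadjusted p under 0.05. Among all genes these shares were 54.2% and 8.32%. Kif23 and Racgap1 encode the kinesin and the GTPase-activating protein of centralspindlin, the complex that positions the cleavage furrow. Kif23 (chromosome 9 from 61917277 to 61946810) had levels of 10.20 and 9.97 in FoxO3 null and 9.70 and 9.72 in wild type arrays of set 2, and of 10.30 and 10.37 in FoxO3 null and 10.19 and 10.07 in wild type arrays of set 1. The groups stood apart in each set. At 0.29 ± 0.07, or 21.9% higher, it had the largest log2 fold change of the 32 (limma, adjusted p = 0.0683). Racgap1 also had groups apart in both sets, at 0.20 ± 0.06. Kif20a, a kinesin of the central spindle, had 0.15, and Prc1, which bundles its microtubules, 0.12.

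The remaining genes were Mki67 and Top2a, which act on mitotic chromosomes, and Foxm1. Mki67, the Ki-67 proliferation antigen, had 12.05 and 11.94 in FoxO3 null against 11.76 and 11.81 in wild type arrays of set 2, and 12.57 and 12.50 in FoxO3 null against 12.44 and 12.50 in wild type arrays of set 1. Its groups were apart in set 2 only, at 0.14 ± 0.06 over both sets. Top2a, the DNA topoisomerase that disentangles sister chromatids, had 0.13 ± 0.06. Foxm1, a forkhead activator of G2/M genes, had 8.96 and 8.92 in FoxO3 null against 8.68 and 8.67 in wild type arrays of set 2, and 8.90 and 9.11 in FoxO3 null against 8.89 and 8.90 in wild type arrays of set 1. Again set 2 separated the genotypes and set 1 did not, and the log2 fold change was 0.19 ± 0.06 (limma, adjusted p = 0.176).

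Within each set the genotypes were also compared on their own. The median log2 fold change was 0.21 in set 2, with 32 of 32 genes above 0 (50.8% of all genes) and a range of 0.02 for Kif2c to 0.38 for Bub1. In set 1 it was 0.08, with 31 of 32 above 0 (55.6% of all genes) and a range of -0.08 for Kif4 to 0.20 for Ube2c. Both FoxO3 null arrays exceeded both wild type arrays for 31 of 32 genes in set 2 (23.6% of all genes) and for 17 of 32 in set 1 (23.3% of all genes). All 17 also stood apart in set 2, so 17 of 32 did so in both sets, against 7.77% of all genes. They were Ccna2, Cdk1, Plk1, Aurkb, Nek2, Bub1, Bub1b, Ttk, Cdc20, Ube2c, Cenpe, Birc5, Kif11, Nusap1, Hmmr, Kif23 and Racgap1. In the set 2 contrast 1 gene passed on its own, Bub1 (0.38, limma adjusted p = 0.0243), where 1.93% of all genes passed. That contrast takes its variance from all 8 arrays, and with set 2 fitted alone Bub1 had an adjusted p of 0.0835 (limma) and 0 of 32 passed.

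**Figure D2:**
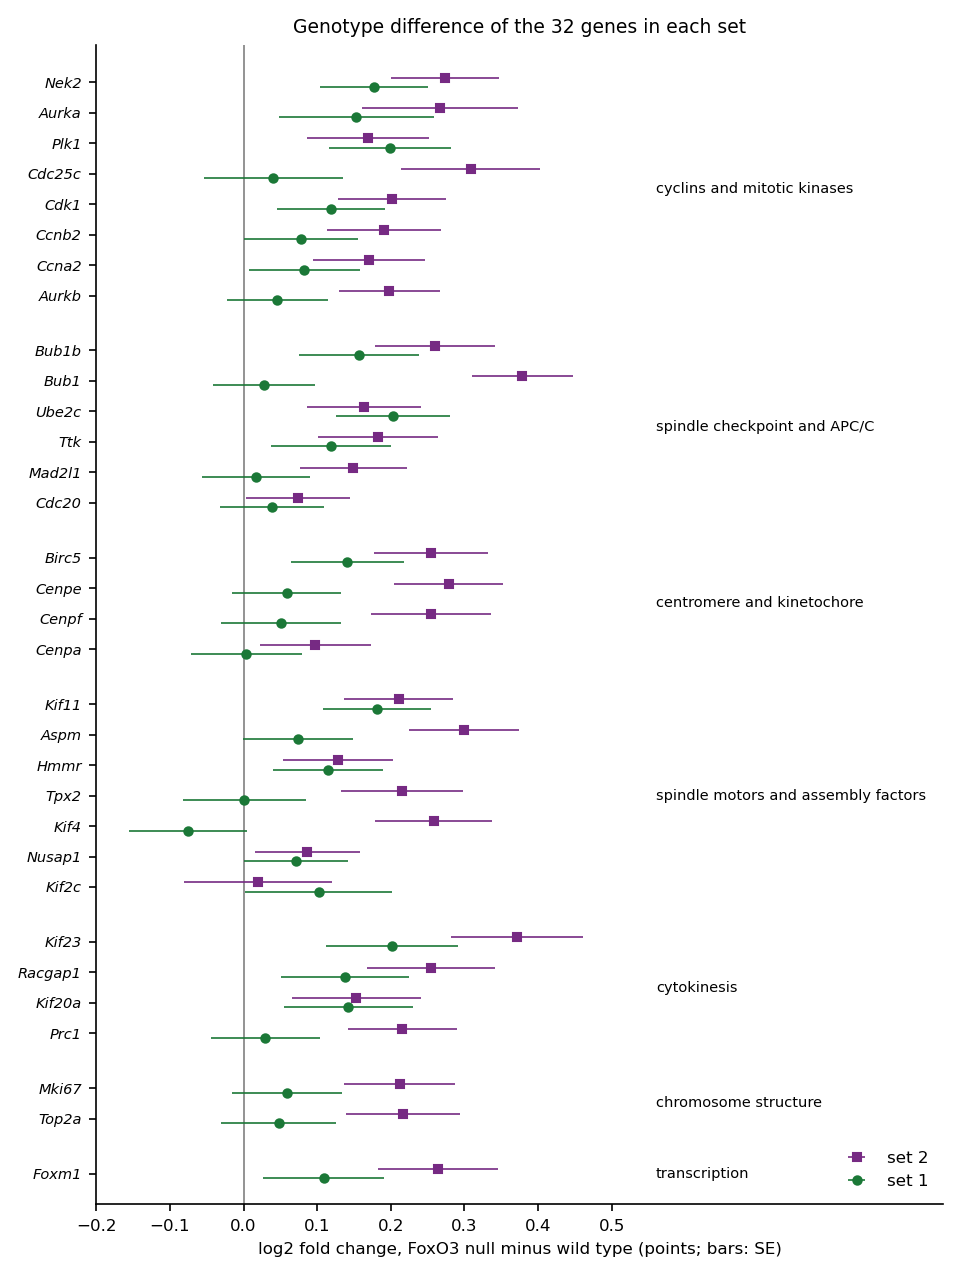
Log2 fold change of each of the 32 genes, FoxO3 null minus wild type, in set 2 (squares) and set 1 (circles), with bars for the SE, grouped by role. The set 2 value exceeds the set 1 value for 29 genes, and Kif4 in set 1 is the only value below 0.

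The log2 fold change had a higher value in set 2 for 29 of 32 genes (47.9% of all genes), the exceptions being Plk1, Ube2c and Kif2c, and the median difference between the effects was 0.11. No gene of the 32 passed the test of that difference itself, the genotype-by-set interaction (limma with Benjamini-Hochberg adjustment, 0 of 32, where 0.187% of all genes passed). At an unadjusted p under 0.05 there were 2 of 32, Bub1 and Kif4 (8.7% of all genes). Bub1 had the largest difference between sets, 0.35 ± 0.10 (SE, limma adjusted p = 0.293), followed by Kif4 with 0.33 ± 0.11 (limma adjusted p = 0.399). A difference between sets was thus not shown for any single gene. It is not excluded either, because in simulated arrays this test found only 9 of 100 differences of 0.5.

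**Figure D3:**
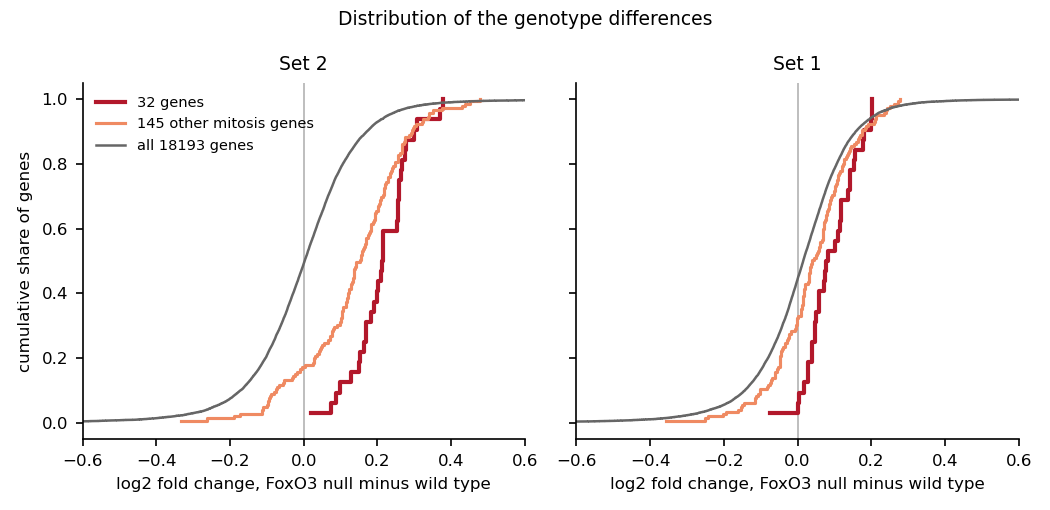
Cumulative share of genes by log2 fold change, FoxO3 null minus wild type, in set 2 (left panel) and set 1 (right panel), for the 32 genes, 145 other mitosis genes and all 18193 genes. In set 2 the medians were 0.21, 0.15 and 0.0025 in this order, and in set 1 they were 0.08, 0.04 and 0.02, so that the curves lie closer together in set 1.

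Irrespective of genotype, the level of most of these genes was lower in set 2 than in set 1, and the median of this difference exceeded that between genotypes in size. The median difference, set 2 minus set 1, was -0.31, which is a level 1.24-fold higher in set 1, and 31 of 32 genes had a negative sign. The set term passed for 25 genes as higher in set 1 (limma with Benjamini-Hochberg adjustment, 21.6% of all genes) and for 1 gene, Ube2c, as higher in set 2 (0.26, 22.2% of all genes). Cenpe differed most, at -1.09: its levels were 9.67 and 9.56 in FoxO3 null and 9.31 and 9.37 in wild type arrays of set 2, against 10.62 and 10.57 in FoxO3 null and 10.51 and 10.56 in wild type arrays of set 1. Kif20a (-0.63), Mki67 (-0.61), Aspm (-0.61), Cenpf (-0.61) and Kif11 (-0.55) came next. The set term did not pass for 6 genes, among which Ccnb2 (-0.10) and Nek2 (-0.11) had the smallest differences.

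Other probe sets of the same genes mostly pointed the same way. Of 45 further probe sets for 23 genes, 38 had a higher and 7 a lower level in FoxO3 null arrays. Above the median level of all probe sets (6.28) 31 of 32 were higher, and below it 7 of 13. Of the 18193 probe sets that stand for a gene, 54.2% were higher. The further probe sets were read on the same 8 arrays and are not separate samples. In the test over all 45037 probe sets 2 of the 45 passed, where 1.12% of those that stand for a gene passed. Both were higher: 1438571_at of Bub1 (0.33, limma adjusted p = 0.0365) and 1417748_x_at of Foxm1 (0.27, limma adjusted p = 0.0492). The Foxm1 probe set had 8.63 and 8.56 in FoxO3 null against 8.31 and 8.32 in wild type arrays of set 2, and 8.51 and 8.61 in FoxO3 null against 8.27 and 8.34 in wild type arrays of set 1, with no overlap. All 5 probe sets of Aspm were higher, with differences of 0.30 to 0.81 in set 2 and 0.05 to 0.12 in set 1. For Kif2c the brightest probe set gave 0.06 and the next 2 gave 0.17 and 0.18. The dim probe set 1437579_at of Nek2, at a mean level of 5.25, ran against its 3 others with -0.16 (limma adjusted p = 0.269).

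**Figure D4:**
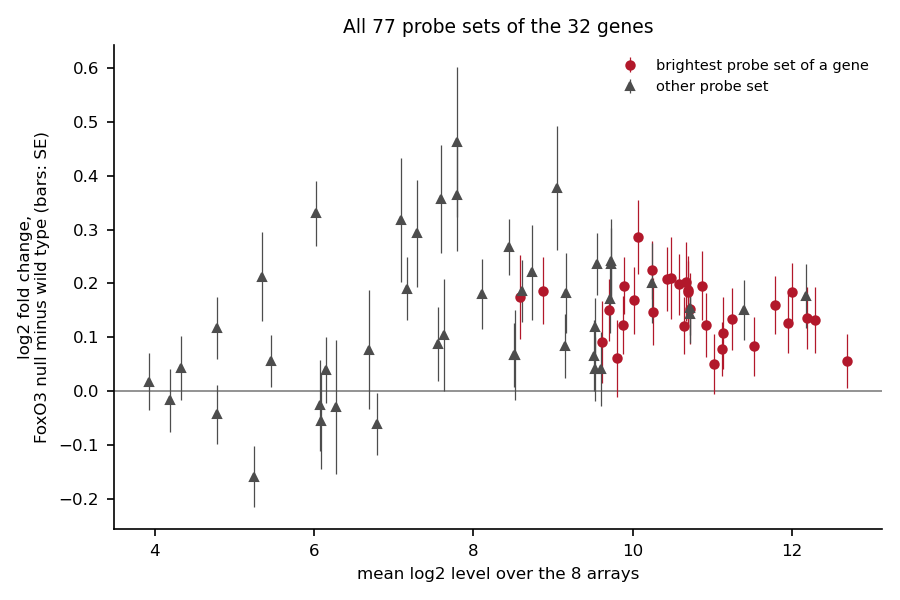
Log2 fold change, FoxO3 null minus wild type, against the mean log2 level for all 77 probe sets of the 32 genes, with bars for the SE. Circles mark the probe set that stands for its gene, triangles the 45 others, whose 7 negative values lie below the median level of 6.28 in all but 1 case.

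The median log2 fold change of other mitosis genes was also above 0. A further 148 genes were listed by role, also with earlier results of these data known. Those not measured were not analysed here, which left 145. Of these, 119 (82.1%) were higher in FoxO3 null arrays, against 54.2% of all genes, with a median log2 fold change of 0.10. At an unadjusted p under 0.05, 51 (35.2%) were higher, against 8.32% of all genes, and 2 were lower, against 1307 of 18193 genes. Medians of the 8 roles in this list ran from 0.02 for the APC/C, securin and separase (11 of 17 genes higher) to 0.14 for the centromere and kinetochore (29 of 30 higher). In the test over all genes 3 rose and 1 fell (limma with Benjamini-Hochberg adjustment). That is 2.76% of the 145, where 1.6% of all genes passed. Fbxo5, an inhibitor of the APC/C, rose by 0.29 (adjusted p = 0.0334), with 9.37 and 9.32 in FoxO3 null against 8.99 and 9.10 in wild type arrays of set 2, and 9.83 and 9.95 in FoxO3 null against 9.54 and 9.68 in wild type arrays of set 1. Pmf1, a subunit of the kinetochore Mis12 complex, rose by 0.29 (adjusted p = 0.037), and Nfya, a subunit of the CCAAT-binding factor NF-Y, by 0.26 (adjusted p = 0.0419). Mad2l2, a homologue of the checkpoint protein Mad2 that also acts in DNA repair, fell by 0.25 (adjusted p = 0.0396). For these 4 genes the groups did not overlap within either set. They were picked by the test on the same arrays, so this adds no separate support. The number past the test was 1 without FoxO3 null array 1_1 or wild type array 1_2 and 0 without any other single array. Both FoxO3 null arrays exceeded both wild type arrays in both sets for 44 of 145 genes (30.3%), against 7.77% of all genes.

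Among replicate arrays most pairs of the 32 genes varied in the same direction, and no pairwise value for other genes is given for comparison. After the mean of each set and genotype was removed, the median Pearson r over their 496 pairs was 0.39, and 73.4% of pairs were above 0. The r of a gene with the mean of the others had a median of 0.64 and ran from -0.68 for Aurkb to 0.99 for Aurka. These values are a description only, because the 8 arrays leave 4 independent deviations and all genes of an array share its hybridisation. Over genes above the median level, those most like the mean of the 32 were Dpagt1, Ddx1, Snx18, Metrn and Ybx1, each with r over 0.994, and none of them is on the list of other mitosis genes.

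Y-linked genes, with no sex given in the labels, differed in the same arrays. Eif2s3y (log2 fold change -0.64, limma adjusted p = 0.0391) and Uty (-0.42, adjusted p = 0.0266) fell in FoxO3 null arrays and Kdm5d had -0.45 (adjusted p = 0.149). The mean level of these 3 was 6.88 and 7.10 in FoxO3 null and 7.80 and 7.66 in wild type arrays of set 2, and 7.90 and 8.09 in FoxO3 null and 8.35 and 8.18 in wild type arrays of set 1. Within both sets the FoxO3 null arrays were the lower ones, by 0.74 in set 2 and 0.27 in set 1. The mean deviation of the 32 genes from their set mean was 0.14 and 0.07 in FoxO3 null and -0.12 and -0.09 in wild type arrays of set 2, and 0.02 and 0.07 in FoxO3 null and -0.08 and -0.01 in wild type arrays of set 1. Its difference between genotypes was likewise larger in set 2 (0.21) than in set 1 (0.09). With this mean of Y-linked genes as a covariate, the median of the 32 genes was 0.04, with 21 above 0 and 0 at an unadjusted p under 0.05. Over all genes 8 passed with this covariate, against 291 without it (limma, Benjamini-Hochberg). The Y-linked mean itself parts the genotypes within both sets, so this fit cannot separate it from genotype. Xist, the RNA of the inactive X chromosome, was 12.62 and 12.54 in FoxO3 null against 12.27 and 12.22 in wild type arrays of set 2, and 11.51 and 11.28 in FoxO3 null against 10.69 and 11.00 in wild type arrays of set 1. The part of Y-linked and X-linked dosage in the difference of the 32 genes was not tested.

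**Figure D5:**
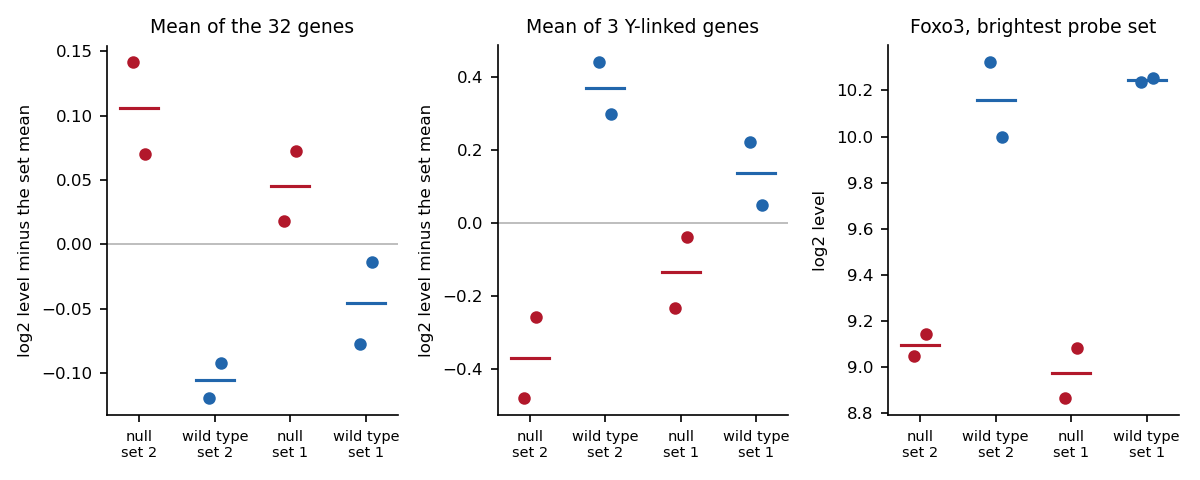
Each point is 1 array and each bar the mean of 2 arrays, with FoxO3 null left of wild type in set 2 and in set 1: the mean of the 32 genes (left) and of 3 Y-linked genes (middle), both as log2 deviations from the set mean, and the log2 level of Foxo3 (right). The 32 genes are above 0 in all 4 FoxO3 null arrays and below 0 in all 4 wild type arrays, the Y-linked genes the reverse, and Foxo3 is at 8.86 to 9.14 in FoxO3 null and 10.00 to 10.32 in wild type arrays.

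Marker lists of cell types that spheres could hold were read in the same fit, and the genes named from them were chosen after their values were seen. For comparison, of all 18193 genes 78 passed as higher and 213 as lower. Without adjustment, 8.32% of all genes were higher at a p under 0.05, and 1307 genes were lower. Of 9 neural stem and progenitor markers 1 rose (Nes, 0.29, limma adjusted p = 0.0332). Sox2 (-0.26), Msi1 (-0.28) and Pax6 (-0.18) were lower at an unadjusted p under 0.05 and did not pass. The mean level of the list was 10.61 to 10.73 in FoxO3 null and 10.61 to 10.79 in wild type arrays. Of 8 neuron markers 1 fell (Gad1, -0.91), at a mean level of 7.28 to 7.39 in FoxO3 null and 7.41 to 7.55 in wild type arrays. Of 7 astrocyte markers 1 fell (Slc1a2, -0.84), at 10.18 to 10.64 in FoxO3 null and 10.30 to 10.84 in wild type arrays. Of 7 oligodendrocyte lineage markers 3 fell (Pdgfra, -0.67, Cspg4, -0.56, and Sox10, -0.27), at 9.58 to 10.69 in FoxO3 null and 9.58 to 10.86 in wild type arrays. The myelin genes Mbp (0.44, limma adjusted p = 0.184) and Mog (0.24, limma adjusted p = 0.395) had positive values that did not pass. The Mbp difference was 0.01 in set 2 and 0.87 in set 1 (limma interaction, adjusted p = 0.0366). Of 8 microglia, 7 endothelial and mural, 5 ependymal and 2 erythroid markers 0 passed, although 1 microglia and 1 endothelial marker were higher at an unadjusted p under 0.05. Their mean levels in FoxO3 null against wild type arrays were 5.45 to 5.56 against 5.46 to 5.51 for microglia, 5.51 to 5.60 against 5.44 to 5.58 for endothelial and mural cells, 6.24 to 6.32 against 6.18 to 6.29 for ependymal cells and 4.89 to 5.24 against 5.09 to 5.20 for erythroid cells. Within each set the FoxO3 null arrays lay below the wild type arrays, without overlap, in the mean level of neuron markers and of astrocyte markers. For astrocytes they were 10.48 and 10.64 in FoxO3 null and 10.84 and 10.70 in wild type arrays of set 2, and 10.22 and 10.18 in FoxO3 null and 10.30 and 10.34 in wild type arrays of set 1. The neuron mean includes Gad1, with -1.05 in set 1 and -0.78 in set 2. The astrocyte mean includes Slc1a2, with -0.78 in set 1 and -0.90 in set 2. By gene, 4 neuron markers were higher and 4 lower, with a median log2 fold change of -0.02. Of the astrocyte markers 2 were higher and 5 lower, with a median of -0.10. A general fall of either list is therefore not shown. The part of a changed cell mix in the difference of the 32 genes was not tested.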

How the data were processed

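Gene expression was measured on 8 Affymetrix Mouse430_2 arrays of secondary neurospheres, 4 FoxO3 null and 4 wild type, with groups, sets and array numbers taken from the titles. The deposited table holds log2 values, 1 column per array. Per the submitters' processing notes, the tool was RMA. RMA subtracts background, equalises the arrays' distributions and summarises probes, so differences are relative to the other genes of an array and are compressed in dim probe sets. The RMA version is not stated. Of 45101 probe sets, 64 controls were left out. Platform annotation gave 1 symbol to 34945 probe sets, several to 932 and none to 9160.

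The genotype test used lmFit and eBayes of limma 3.58.1 (R 4.3.3), two-sided and with set as an additive term, and Benjamini-Hochberg adjustment over 18193 genes and a threshold of 0.05. The interaction and the effect within each set came from a fit of set, genotype and their interaction. In simulated arrays the genotype test found 80 of 100 genes changed by 0.5 on the log2 scale, and the interaction test found 9 of 100. Smaller changes were not tried. Tables and promoter searches were made with pandas 2.3.3 in Python 3.11.15. The 32 genes and all lists were chosen with earlier results of these data known. Named were all 32 genes, other mitosis genes past the test (up to 4 in each direction), every Foxo3 probe set, the Y-linked genes, the 5 genes most like the mean of the 32, and promoters of up to 6 genes with both elements (not on chromosome 18). Alternatives covered the set term, each set alone, normalization, filters, the variance model, the probe set used, arrays of 1 set and genotype as repeats, a Y-linked covariate and leaving out each array. Arrays with the same number in both genotypes deviated together weakly in set 1 and not in set 2 (r of 0.12 in set 1 and -0.11 in set 2 over all genes, and 0.37 and -0.12 over the 32 genes). No arrays were identical, and the lowest correlation within a set was 0.996. The number of arrays limits the precision.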

Additional observations from a re-analysis of the deposited data

Results flagged for a closer look

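In set 2 both FoxO3 null arrays had more Kif4 signal than both wild type arrays, and in set 1 both had less. The difference between the 2 effects was 0.333 on the log2 scale, and the test of it did not pass (limma interaction, adjusted p = 0.399). The 3' minus 5' difference of the Gapdh control probe sets was -0.11 in wild type array 2_1, apart from the other 3 wild type arrays at -0.08 to -0.07, with a gap of 0.912 of the group's range. In FoxO3 null arrays it was -0.11 to -0.09. Of 72 groups of 4 arrays tested for an outlying array, this was the only 1 found. Each group pooled 1 genotype over both sets, and a difference in level between sets can hide an outlying array. Chance alone flags about 1 in 20 groups without such a difference. The count therefore does not exclude further outlying arrays.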

How the results depend on the processing

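All 32 genes were higher in FoxO3 null arrays under 21 of 24 alternatives, including all 8 fits without 1 array, in which the median log2 fold change was 0.12 to 0.18 and 0 genes passed. Of 768 values of a gene under an alternative, 737 kept direction and call, 17 passed the test anew and 14 turned negative. The median was 0.214 in set 2 alone, 0.0801 in set 1 alone and 0.0438 with the Y-linked covariate. Genes past the test numbered 7 with a variance trend (Cdk1, Nek2, Bub1b, Ube2c, Birc5, Kif11 and Kif23), 6 with arrays of a set and genotype as a random block (the same without Cdk1), 3 above the median level and 3 at an adjusted p under 0.1 (Nek2, Kif11 and Kif23 in both), and 1 with the probe set of largest variance (Foxm1). The other mitosis genes past the test, 4 in the fit described, numbered 11 with the random block, 10 with the trend, 9 above the median level, 7 at an adjusted p under 0.1 and 0 to 1 without 1 array. They numbered 0 in either set alone, without the set term, with no moderation of the variance, with all probe sets tested, with array means and with the Y-linked covariate. Another fit replaced set by a block for each array label from 1_1 to 2_2, which pairs same-numbered arrays within a set. There 0 of the 32 genes and 0 other mitosis genes passed, and 18 of 32 were under an unadjusted p of 0.05. Unadjusted, 24 genes were under 0.05 in the fit described, 4 with no set term and 11 with array means. Negative log2 fold changes were -0.075 for Kif4 in set 1 alone, and -0.061 for Ttk and -0.027 for Top2a with the probe set of largest variance. With the Y-linked covariate they were -0.165 for Kif4, -0.073 for Cenpf, -0.069 for Top2a, -0.059 for Bub1, -0.049 for Cenpe, -0.048 for Mad2l1, -0.047 for Mki67, -0.047 for Tpx2, -0.035 for Prc1, -0.011 for Cdc25c and -0.0061 for Aspm. The causes of these changes were not tested. Dim probe sets are compressed by RMA, and scanner files were not used here.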
